A study of Rattus norvegicus with 12 samples.

Results

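The aquaporins are the membrane channels through which kidney tubules move water, and Avpr2 is the receptor through which vasopressin sets how much water the collecting duct returns to the blood. The array annotation named 1 of 8 genes (Aqp1, Aqp2, Aqp3, Aqp4, Aqp6, Aqp7, Aqp11 and Avpr2) alone for 12 of the 31099 probe sets, and all 12 are described here. The genes are 8 of 14217 named on the array. Their signals were measured in kidney cortex on 12 arrays, in 4 groups of 3. Male rat littermates, of a strain that the labels do not give, received streptozocin, which destroys pancreatic beta cells, intravenously at 65 mg/kg, or vehicle, at 4 or 14 weeks of age. Pellets followed 3 days later, with insulin palmitate for diabetic rats and vehicle for nondiabetic rats, and cortex was taken after 6 weeks, at 10 or 20 weeks of age. Blood glucose of diabetic rats is labelled 350 to 450 mg/dl. Streptozocin and insulin went with diabetes in every diabetic group, so the effects of these agents and of diabetes cannot be told apart. The label of 10-week diabetic replicate 1 names the pellet as both insulin and vehicle. The data used here hold no urine volume, urine osmolality or plasma vasopressin.

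Water leaves the proximal tubule and the thin descending limb through Aqp1, which is present whether or not vasopressin acts. In the collecting duct, vasopressin binds Avpr2 on principal cells, the receptor raises cyclic AMP, protein kinase A is activated, and vesicles carrying Aqp2 fuse with the luminal membrane. The same signal raises Aqp2 transcription over days. Water then leaves the cell towards the blood through Aqp3 and Aqp4. Aqp7 carries glycerol as well as water in the straight part of the proximal tubule, Aqp11 lies inside proximal tubule cells at the endoplasmic reticulum, and Aqp6 lies in vesicles of acid-secreting intercalated cells. In uncontrolled diabetes filtered glucose holds water in the tubule, an osmotic diuresis, and plasma vasopressin is known to be raised.

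Promoter sequences are shown for the collecting duct genes Aqp2, Aqp3 and Avpr2, to set a gene that rose beside partners that were not called. Those of Aqp4, which was also called higher over both ages, are not printed. Each is the 250 bases before the gene's start in RefSeq, written 5′ to 3′ on the gene's strand. Capitals mark matches, on either strand, to TGACG, the core of the cyclic AMP response element, or to AGATAA, a site of the GATA factors.
Aqp2 (GRCr8 chr7:132590036-132590285, plus strand): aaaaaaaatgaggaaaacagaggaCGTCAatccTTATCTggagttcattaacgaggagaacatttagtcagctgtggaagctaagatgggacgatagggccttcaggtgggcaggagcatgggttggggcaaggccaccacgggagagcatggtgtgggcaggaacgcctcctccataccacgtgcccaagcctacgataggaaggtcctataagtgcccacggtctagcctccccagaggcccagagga
Aqp3 (GRCr8 chr5:61040684-61040933, minus strand): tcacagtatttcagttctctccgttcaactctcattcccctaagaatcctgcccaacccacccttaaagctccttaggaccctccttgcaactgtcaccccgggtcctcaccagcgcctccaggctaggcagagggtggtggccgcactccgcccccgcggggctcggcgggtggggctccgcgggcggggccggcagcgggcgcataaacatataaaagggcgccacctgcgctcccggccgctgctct
Avpr2 (GRCr8 chrX:156784889-156785138, plus strand): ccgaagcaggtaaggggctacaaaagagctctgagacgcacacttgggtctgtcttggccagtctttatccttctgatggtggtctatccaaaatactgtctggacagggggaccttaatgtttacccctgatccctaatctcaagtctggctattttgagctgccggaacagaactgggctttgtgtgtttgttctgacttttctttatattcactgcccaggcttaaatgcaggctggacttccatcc
The Aqp2 sequence holds 1 match to each, both on the opposite strand. The TGACG match spans bases 226 to 222 before the start, and the AGATAA match spans bases 217 to 212. Neither the Aqp3 nor the Avpr2 window holds either word. The 2 windows of Aqp4, the other member called higher, hold neither word as well. With 2 called genes, whether the matches go with the calls cannot be told, and this was not tested. Of the 7 members with an entry in the promoter table, Aqp2 was the 1 with a TGACG match, and 18.2% of 33469 RefSeq promoters hold one in a window of this length. It was also the 1 with an AGATAA match, which 10.3% of the promoters hold. No member window held the full element TGACGTCA, present in 1.59% of promoters. The core of the tonicity element, GGAAA, was found in 5 of 7 members (56.9% of promoters) and the E-box CANNTG in 5 of 7 (65.5%). A match is a description of these letters and shows no binding. In the RefSeq gene table Aqp5 and Aqp6 follow Aqp2 directly on chromosome 7.

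Of the 12 probe sets 8 were bright enough to be tested. They were 2 of Aqp1 and 1 each of Aqp2, Aqp3, Aqp4, Aqp7, Aqp11 and Avpr2. The other 4, which were 2 of Aqp4, 1 of Aqp6 and 1 of Avpr2, were among the dimmest 40% of the array, below a geometric mean signal of 70.9, and were left out of the test. With no such filter the same fit called none of these 4 in any of 5 comparisons (limma adjusted p 0.707 to 0.992). Signals are the deposited values on their linear scale, and differences are on the log2 scale with the standard error (SE) of a limma fit to all 12 arrays. A probe set was called at an adjusted p (Benjamini-Hochberg over 18625 tested probe sets, two-sided) under 0.05. In cortex as a whole, fewer cells of a type and less RNA per cell cannot be told apart.

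Aqp2, the water channel of the luminal membrane, was higher in every diabetic array than in every nondiabetic array of the same age. At 10 weeks its signals were 5191, 4292 and 4664 in nondiabetic rats and 6405, 8559 and 7867 in diabetic rats. At 20 weeks they were 4454, 5179 and 4249 in nondiabetic rats and 5340, 6524 and 6646 in diabetic rats. The lowest diabetic value of all was thus above the highest nondiabetic value of all. In order of level the groups were 10-week diabetic (7610 ± 1100, mean ± SD, n = 3), 20-week diabetic (6170 ± 721), 10-week nondiabetic (4716 ± 452) and 20-week nondiabetic (4627 ± 489). The diabetic groups overlapped each other, as did the nondiabetic groups, while 20-week diabetic and 10-week nondiabetic rats did not overlap. Over both ages Aqp2 rose 1.46-fold (log2 0.55 ± 0.09 SE, 95% interval 0.36 to 0.74, limma adjusted p = 0.00391).

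**Figure D1:**
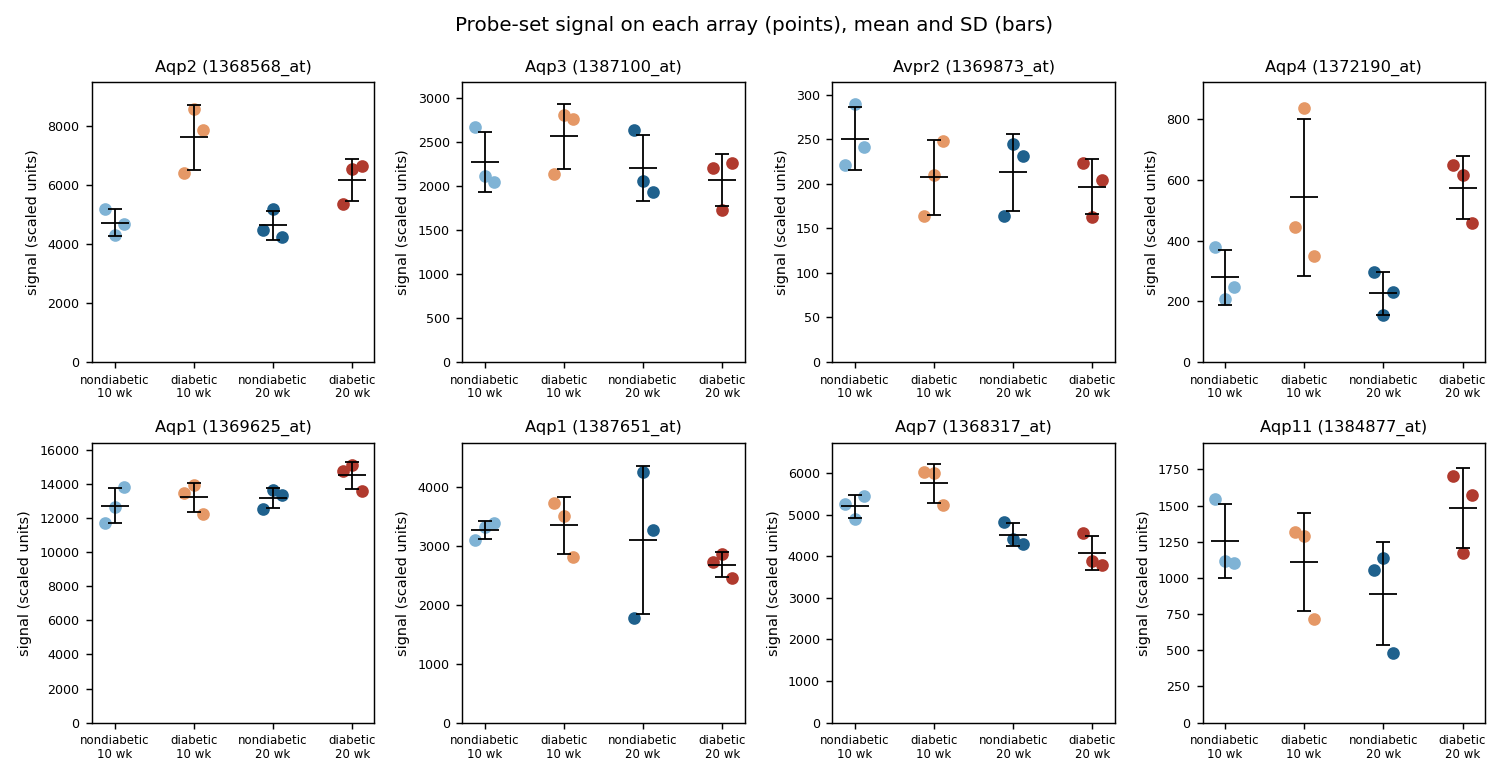
Linear signal (scaled units) of the 8 tested probe sets on each of the 12 arrays, with the group mean and SD as black bars (n = 3). The Aqp2 signals of the 6 diabetic arrays (5340 to 8559) lie above those of the 6 nondiabetic arrays (4249 to 5191), while the groups of Aqp3 and Avpr2 overlap.

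By age, Aqp2 rose at 10 weeks (1.61-fold, log2 0.68 ± 0.12, limma adjusted p = 0.0433) and was 1.33-fold higher at 20 weeks, where it was not called (log2 0.41 ± 0.12, 95% interval 0.14 to 0.68, adjusted p = 0.106). The difference between the ages was itself not called (interaction 0.27 ± 0.18, adjusted p = 0.709), so the data do not show that the response differed by age. The call over both ages held in each of 23 other settings of the analysis, with values of 0.50 to 0.61 and adjusted p of 0.0024 to 0.0208. The call at 10 weeks was lost in 16 of 24 settings, with values of 0.59 to 0.80 and adjusted p up to 0.195. Leaving out any single 10-week nondiabetic array ended it, with adjusted p-values of 0.117, 0.195 and 0.0618 for replicates 1, 2 and 3 and values of 0.76, 0.62 and 0.68. Leaving out 10-week diabetic replicate 2 (0.59, adjusted p = 0.18) or replicate 3 (0.66, adjusted p = 0.113) ended it too. The 20-week arrays enter this difference only through the shared variance, the filter on dim probe sets and the adjustment over all probe sets. Of these arrays, nondiabetic replicates 1 and 3 (adjusted p = 0.0646 and 0.054) and diabetic replicates 2 and 3 (0.0639 and 0.0617) each ended the call when left out. Without 10-week diabetic replicate 1, the array of the ambiguous pellet label and the lowest in Aqp2 of its group, the value was 0.80 (adjusted p = 0.0499).

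Aqp4, a channel of the basolateral membrane that is known for its place in the medullary collecting duct, was represented by 3 probe sets, of which 1 was bright enough to be tested. On that probe set (1372190_at) the 20-week signals were 295, 154 and 230 in nondiabetic rats and 651, 616 and 457 in diabetic rats. At 10 weeks they were 380, 208 and 248 in nondiabetic rats and 445, 836 and 348 in diabetic rats. The groups were apart at 20 weeks and overlapped at 10 weeks, where diabetic replicate 2 was the highest of all 12 arrays. It rose 2.21-fold over both ages (log2 1.14 ± 0.23, 95% interval 0.64 to 1.65, limma adjusted p = 0.0159) and 2.6-fold at 20 weeks (1.38 ± 0.33, adjusted p = 0.0452). At 10 weeks it was 1.88-fold higher and not called (0.91 ± 0.33, adjusted p = 0.321). The interaction was not called (-0.47 ± 0.47, adjusted p = 0.817).

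The other Aqp4 probe sets were dim and scattered. On 1368981_at the group ranges were 35.4 to 40.3 and 4.7 to 71.4 at 10 weeks in nondiabetic and diabetic rats, and 12.9 to 55.4 and 37.4 to 67.7 at 20 weeks. On 1387397_at every signal was between 4.07 and 59. Neither had groups that stood apart by diabetes, so the rise of Aqp4 rests on 1 of its 3 probe sets. Over both ages its call held in each of 23 settings (0.96 to 1.30, adjusted p 0.0107 to 0.0439), while the call at 20 weeks was lost in 13 of 24 (1.12 to 1.59, adjusted p up to 0.162). Leaving out any 20-week diabetic array ended it, with values of 1.28, 1.32 and 1.53 and adjusted p-values of 0.129, 0.137 and 0.0829 for replicates 1, 2 and 3. Leaving out 20-week nondiabetic replicate 2 (1.12, adjusted p = 0.162) or replicate 3 (1.41, adjusted p = 0.0822) ended it as well. Of the 10-week arrays, nondiabetic replicates 2 and 3 (adjusted p = 0.0538 and 0.0537) and diabetic replicate 1 (0.0588) each did so. They enter the 20-week difference only through the shared variance, the filter and the adjustment over all probe sets.

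Aqp3, which lets water out of the principal cell on the blood side, did not pass the test. Its signals were 2669, 2107 and 2045 in nondiabetic and 2132, 2800 and 2756 in diabetic rats of 10 weeks, and 2634, 2050 and 1936 against 2209, 1722 and 2255 at 20 weeks. The groups overlapped at both ages. Over both ages the difference was 0.039 ± 0.11, with a 95% interval of -0.20 to 0.28 (limma adjusted p = 0.905), which excludes the Aqp2 difference of 0.55.

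Avpr2, the vasopressin receptor, did not pass either. On its tested probe set (1369873_at) the signals were 221, 290 and 242 in nondiabetic and 164, 210 and 248 in diabetic rats of 10 weeks. At 20 weeks they were 164, 245 and 231 in nondiabetic and 224, 163 and 204 in diabetic rats. All 4 groups overlapped, and the difference over both ages was -0.20 ± 0.15 (95% interval -0.53 to 0.14, limma adjusted p = 0.561). The other Avpr2 probe set was below the limit and ranged from 24.8 to 69.9 over the 12 arrays.

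**Figure D2:**
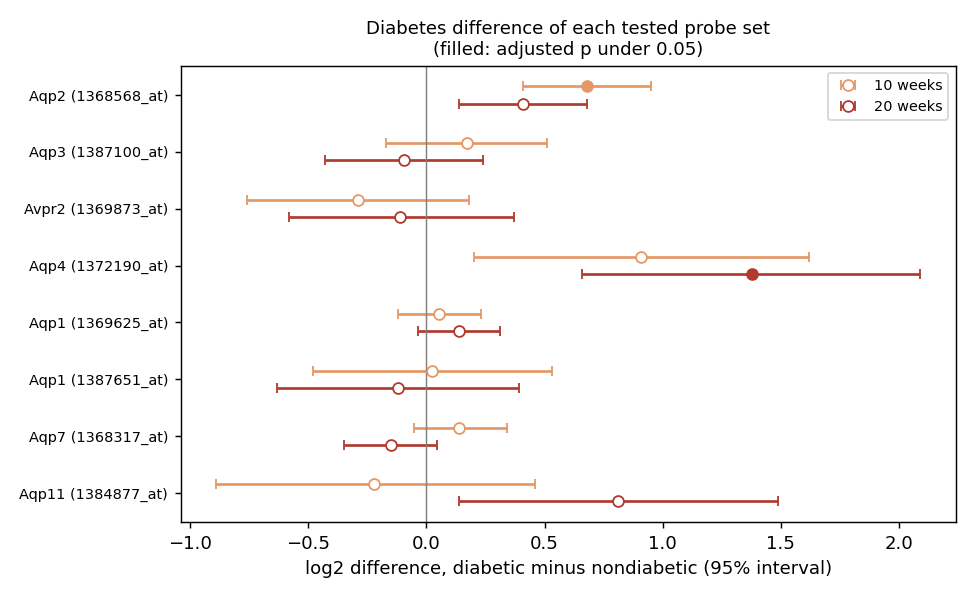
Log2 difference of diabetic minus nondiabetic rats at 10 weeks (orange) and 20 weeks (red) for the 8 tested probe sets, with 95% intervals; filled points passed an adjusted p of 0.05. Aqp2 at 10 weeks (0.68) and Aqp4 at 20 weeks (1.38) are filled, and the intervals of Aqp1, Aqp3, Aqp7 and Avpr2 include 0 at both ages.

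Counted over the members, 1 of 8 tested probe sets was called higher at 10 weeks (Aqp2) and none lower, where 0.306% of all tested probe sets were called (0.123% higher and 0.183% lower). With array medians set equal that balance turned, from 23 higher and 34 lower to 34 higher and 9 lower. At 20 weeks 1 of 8 was called higher (Aqp4) and none lower, against 2.84% (1.22% higher and 1.62% lower). Over both ages 2 of 8 were called higher and none lower, against 4.47% (2.14% higher and 2.34% lower); with equal medians the split of 398 higher and 435 lower became 456 and 283. The median difference of the 8 was 0.097 at 10 weeks and 0.023 at 20 weeks, and that of all tested probe sets -0.021 and -0.0043. Among the 8, 1 (Aqp2) had all diabetic arrays above all nondiabetic arrays at 10 weeks, as had 7.47% of all tested probe sets. At 20 weeks 3 (Aqp2, Aqp4 and Aqp11) did, against 10.1%. The calls thus lay in 2 of the 8 probe sets, and the other 6 had differences over both ages between -0.20 and 0.30.

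Aqp1, the constitutive channel of the proximal tubule, was measured by 2 probe sets, and neither was called. On the brighter (1369625_at) the signals were 11747, 12648 and 13837 in nondiabetic and 13450, 13929 and 12271 in diabetic rats of 10 weeks. At 20 weeks they were 12563, 13654 and 13349 in nondiabetic and 14752, 15148 and 13621 in diabetic rats. The difference over both ages was 0.095 ± 0.057 (95% interval -0.027 to 0.22, limma adjusted p = 0.419), so a change as large as that of Aqp2 lies outside its interval. On 1387651_at it was -0.048 ± 0.17 (95% interval -0.41 to 0.31, adjusted p = 0.92). That probe set varied most in 20-week nondiabetic rats, from 1774 in replicate 1, the array with the highest 3'/5' ratio of the Gapdh control (2.09, against 1.41 to 1.76 on the others; it rises as RNA degrades), to 4258 in replicate 2. Without replicate 1 the difference was -0.23 over both ages (adjusted p = 0.222) and -0.48 at 20 weeks (adjusted p = 0.106, against -0.12 with it). Without replicate 2 it was 0.089 over both ages and 0.15 at 20 weeks, so its sign rests on single arrays. The part of RNA quality in this spread was not tested.

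Aqp7, the glycerol channel, was not called, and its diabetes differences at the 2 ages had opposite signs. Its signals were 5261, 4881 and 5439 in nondiabetic and 6025, 6004 and 5218 in diabetic rats of 10 weeks, and 4832, 4404 and 4304 against 4552, 3878 and 3791 at 20 weeks. Every 20-week array was below every 10-week array of the same diabetes state, and Aqp7 was the 1 tested member probe set whose nondiabetic arrays did so (5.7% of all tested probe sets). The diabetes difference was 0.14 ± 0.09 at 10 weeks and -0.15 ± 0.09 at 20 weeks (limma adjusted p = 0.605 and 0.445), and the interaction of 0.30 ± 0.13 had an unadjusted p of 0.0403 and an adjusted p of 0.607. Between nondiabetic rats of 20 and 10 weeks the difference was -0.20 ± 0.09 (unadjusted p = 0.0457, adjusted p = 0.577). Aqp7 is also the glycerol channel of fat cells. Of 7 fat cell markers 3 were bright enough to be tested and none was called at either age. Their summed signal ranged from 164 to 857 and from 606 to 1456 in nondiabetic and diabetic rats of 10 weeks, and from 539 to 739 and from 921 to 1821 at 20 weeks. The sums overlapped at 10 weeks and stood apart at 20 weeks, and the part of fat cells in the Aqp7 values was not tested.

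Aqp11, whose loss in mice is known to give cystic kidneys, had all diabetic arrays of 20 weeks (1704, 1172 and 1570) above all nondiabetic ones (1055, 1137 and 481). At 10 weeks the groups overlapped (1548, 1120 and 1100 in nondiabetic, 1316, 1290 and 717 in diabetic rats). The difference was 0.81 ± 0.31 at 20 weeks (unadjusted p = 0.0222, limma adjusted p = 0.207) and -0.22 ± 0.31 at 10 weeks (adjusted p = 0.85). The interaction was -1.03 ± 0.44 (unadjusted p = 0.037, adjusted p = 0.603). None of these passed. The lowest array, 20-week nondiabetic replicate 3 at 481, decided the size: without it the 20-week difference was 0.42 (adjusted p = 0.452).

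Aqp6, the vesicle channel of intercalated cells, was below the limit for the test, with 20.8 to 75.4 over the 12 arrays. In nondiabetic rats it was 55 to 62.8 at 10 weeks and 37.4 to 48.2 at 20 weeks, without overlap, and in diabetic rats 28.3 to 75.4 and 20.8 to 71.2. With no filter on dim probe sets the age difference in nondiabetic rats was not called (limma adjusted p = 0.866). Of tested probe sets, 5.7% had all 20-week nondiabetic arrays below all 10-week ones. Of the 5 aquaporin genes outside the members that were on the array, Mip, Aqp5, Aqp8 and Aqp9 were below the same limit, and Aqp12a was not called over both ages (-0.52 ± 0.20, limma adjusted p = 0.18).

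**Figure D3:**
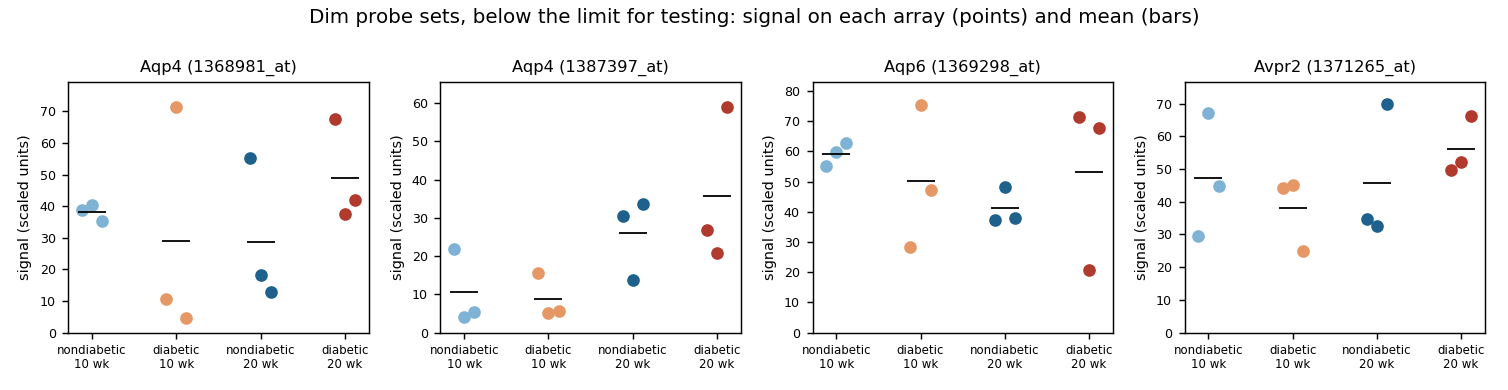
Linear signal of the 4 probe sets below the limit for the test, on each of the 12 arrays, with group means as bars. All signals are below 76, and the groups overlap in every diabetes comparison.

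Between nondiabetic rats of 10 and 20 weeks none of the 8 tested member probe sets was called, nor was any of the 18625 probe sets (0% by limma; 1603, or 8.61%, had an unadjusted p under 0.05, among them 1 member probe set, that of Aqp7). In the interaction limma called none either (0%), with 1480 probe sets (7.95%) and 2 members, Aqp7 and Aqp11, at an unadjusted p under 0.05.

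Aqp2 and Avpr2 are markers of principal cells, so the other markers of these cells were set beside them. Of 8 tested principal cell markers without aquaporins and Avpr2, 1 rose and 1 fell over both ages and 6 did not pass. Fxyd4, a regulator of the sodium pump, rose 1.72-fold (0.78 ± 0.15, limma adjusted p = 0.00914), with signals of 302 to 359 and 441 to 742 in nondiabetic and diabetic rats of 10 weeks and of 326 to 531 and 599 to 751 at 20 weeks. Hsd11b2, which inactivates corticosterone and so keeps the mineralocorticoid receptor for aldosterone, fell (-0.62 ± 0.13, adjusted p = 0.0192), with means ± SD of 5499 ± 554 and 3826 ± 1273 at 10 weeks and 4392 ± 154 and 2786 ± 179 at 20 weeks (n = 3). The sodium channel subunits, named for their role after the values were seen, were Scnn1a (-0.15 ± 0.14), Scnn1b (0.0093 ± 0.11) and Scnn1g (-0.0057 ± 0.10) and did not pass, nor did the factors Gata3 (-0.32 ± 0.12, adjusted p = 0.179) and Tfcp2l1 (-0.20 ± 0.10, adjusted p = 0.294). The median of the list was -0.12, against -0.01 for all tested probe sets.

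The mean log2 signal of these 8 markers was 9.59 to 9.85 in nondiabetic and 9.61 to 9.78 in diabetic rats of 10 weeks, and 9.53 to 9.77 and 9.50 to 9.54 at 20 weeks. The log2 signal of Aqp2 minus that mean on the same array, whose absolute size has no meaning between probe sets, was 2.44 to 2.59 and 3.04 to 3.41 at 10 weeks, and 2.38 to 2.59 and 2.84 to 3.20 at 20 weeks. This difference was therefore apart between the groups at both ages, while the mean of the other markers overlapped at both ages, narrowly at 20 weeks. The summed signal of the 8 markers overlapped at 10 weeks (11410 to 14760 in nondiabetic and 9051 to 12247 in diabetic rats). At 20 weeks it was lower in diabetic rats without overlap (10983 to 11972 and 9478 to 9820). Most of that fall in the sum was Hsd11b2 (20-week means of 4392 and 2786 in nondiabetic and diabetic rats). Gata3 (396 and 296) and the sodium channel subunits were also lower, Tfcp2l1 was level (4044 and 4055) and Fxyd4 was higher (431 and 679). None of the 8 markers was called at 20 weeks. The 20-week gap between Aqp2 and the markers therefore holds lower values of some markers, chiefly Hsd11b2, as well as higher Aqp2.

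**Figure D4:**
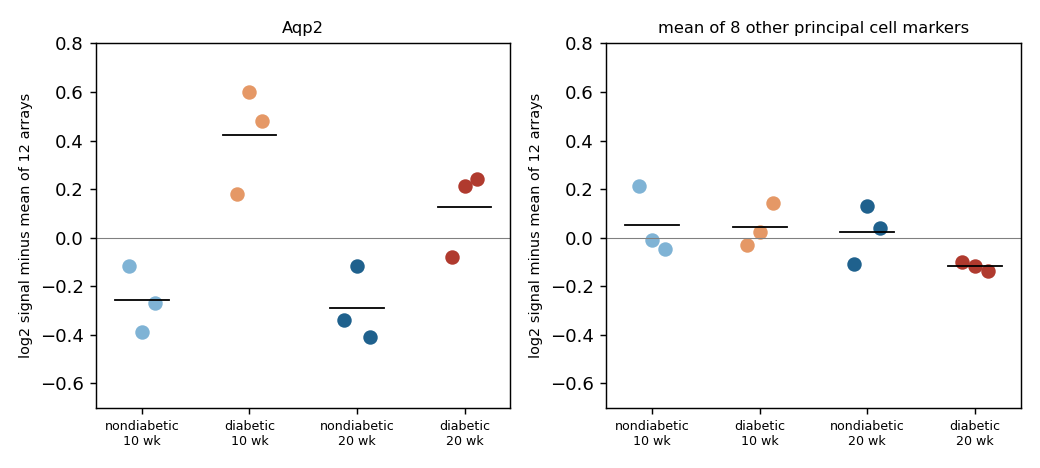
Log2 signal of Aqp2 (left) and mean log2 signal of 8 other principal cell markers (right) on each array, each minus its mean over the 12 arrays; horizontal bars are group means. Aqp2 is higher in both diabetic groups, whereas the mean of the other markers is not.

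Neighbouring cell types and the depth of dissection were checked in the same way. Of 6 tested intercalated cell markers 2 fell over both ages, the anion exchanger Slc26a4, or pendrin (-0.51 ± 0.10, limma adjusted p = 0.011), and the proton pump subunit Atp6v1b1 (-0.37 ± 0.09, adjusted p = 0.0431), and none was called higher. The list as a whole did not fall. Its differences ran from -0.51 to 0.54, with a median of -0.0073, against -0.01 for all tested probe sets. At 20 weeks they ran from -0.32 to 0.82, with none called. Of 5 tested markers of the inner medulla and thin limbs 1 rose over both ages, Slc5a3, the inositol transporter that hypertonicity is known to induce (0.78 ± 0.20, adjusted p = 0.0418). Slc14a2, the urea transporter of the inner medulla, gave -0.45 ± 0.31 (adjusted p = 0.495) with signals of 36.8 to 162. No tested marker of this list was at 0. Their summed signal was 5722 to 6353 and 5956 to 7653 in nondiabetic and diabetic rats of 10 weeks, and 5909 to 6717 and 7903 to 10067 at 20 weeks. It was thus apart between the groups at 20 weeks, the age at which Aqp4 was called. Of single tested probe sets, 10.1% had all diabetic arrays above all nondiabetic ones at 20 weeks. At that age Slc6a6 (means of 4132 and 5212 in nondiabetic and diabetic rats) and Slc5a3 (946 and 2069) made up most of the sum. S100a4 was also higher in diabetic rats (394 and 600), while Akr1b1 (839 and 699) and Slc14a2 (110 and 95.8) were lower. Slc6a6, S100a4 and Akr1b1 were named after their values were seen. The part of medullary tissue in the Aqp2 and Aqp4 values was not tested. Proximal tubule markers, the defining genes of cortex, were bright on every array (summed signal of 12 genes 169469 to 203046), and 1 of 12 tested was called lower over both ages (Slc13a3, -0.29 ± 0.06, adjusted p = 0.0166). Of 5 tested markers of the straight proximal tubule, where Aqp7 lies, none was called, but all 5 differences at 10 weeks were positive (0.051 to 1.73, median 0.99, against 0.005 at 20 weeks). Their mean log2 signal was 9.07 to 10.87 in nondiabetic and 11.05 to 11.21 in diabetic rats of 10 weeks, which stood apart, and 10.86 to 11 and 10.87 to 11.49 at 20 weeks. Their summed signal, the measure used for the lists above, overlapped at 10 weeks (27714 to 52996 and 48528 to 52001). The amino acid transporter Slc7a13, named after its values were seen, spanned 332 to 19612 among the 10-week nondiabetic arrays. The part of dissection depth in the 10-week values of Aqp2 and Aqp7 was not tested. Among the other cell types the calls over both ages were Cldn10 of the thick limb (1 of 6, -0.50 ± 0.10), Nphs1 and Ptpro of podocytes (2 of 6, -0.48 ± 0.10 and -0.40 ± 0.10), Vwf of endothelium (1 of 7, -1.78 ± 0.34) and Csf1r of macrophages (1 of 4 leukocyte markers, 0.36 ± 0.09), with none of 3 in the distal convoluted tubule and none of 3 in red blood cells.

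The genes around the receptor and the channel were described from lists. Of 21 tested genes of vasopressin and cyclic AMP signalling, 1 fell over both ages and none rose. That gene was Crem, a cyclic AMP responsive factor that includes repressor forms (-0.37 ± 0.09, limma adjusted p = 0.0345). Akap7, an anchor of protein kinase A (0.39 ± 0.11, adjusted p = 0.0653), the phosphodiesterase Pde4b (-0.27 ± 0.09, adjusted p = 0.115) and the prostaglandin receptor Ptger3 (-0.44 ± 0.16, adjusted p = 0.147) did not pass. Named for their place in the path after the values were seen, neither did Adcy6, the main vasopressin-sensitive adenylyl cyclase (-0.14 ± 0.07, adjusted p = 0.336), nor Gnas, the stimulatory G protein (0.031 ± 0.06, adjusted p = 0.858). The list's median was -0.025.

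Of 18 tested genes of Aqp2 trafficking 2 rose over both ages and none fell. They were Anxa2, a membrane-binding annexin (0.26 ± 0.06, limma adjusted p = 0.0415), and Vamp8, a vesicle fusion protein (0.22 ± 0.05, adjusted p = 0.0327). Both were also called at 20 weeks (0.43 ± 0.09 and 0.31 ± 0.07). At 10 weeks none of the 18 was called. There the means in nondiabetic and diabetic rats were 1376 and 1461 for Anxa2 and 4294 and 4686 for Vamp8. At 20 weeks they were 1438 and 1934, and 4275 and 5298. The motor Myo5b (0.17 ± 0.07, adjusted p = 0.216) and the endosome protein Rab7a (-0.11 ± 0.05, adjusted p = 0.25) did not pass. Among 11 tested genes of Aqp2 transcription none was called over both ages, while at 20 weeks Fos, an immediate early factor, rose (1.31 ± 0.28, adjusted p = 0.0301) and Nr1h4, the bile acid receptor, fell (-0.59 ± 0.13, adjusted p = 0.0277). Nfat5, the tonicity factor, gave 0.28 ± 0.13 over both ages (adjusted p = 0.277). Its signals overlapped at 10 weeks (1721 to 2153 in nondiabetic and 1532 to 1799 in diabetic rats). At 20 weeks it was not called, but its diabetic arrays (2462 to 3579) were all above the nondiabetic ones (1299 to 2113). The same held for 10.1% of all tested probe sets. Of 6 tested genes of urea transport and of the concentrating mechanism none was called at either age or over both (median -0.26 over both ages). The urea transporter Slc14a1 gave -0.60 ± 0.29 (adjusted p = 0.301) and Umod, the marker protein of the thick limb, -0.35 ± 0.19 (adjusted p = 0.386). The counts over both ages, of these lists and of the cell type markers, stand against 4.47% of all tested probe sets. Those at 20 weeks stand against 2.84% and those at 10 weeks against 0.306%. Over both ages the calls of Crem, Vamp8, Anxa2, Atp6v1b1, Slc5a3, Csf1r and Ptpro were each lost on leaving out 7 to 11 of the 12 arrays singly. At 20 weeks those of Anxa2, Fos, Nr1h4 and Vamp8 were lost without any of 5, 5, 6 and 10 arrays. Over both ages that of Hsd11b2 was lost without 1 array (10-week nondiabetic replicate 1, -0.58, adjusted p = 0.0506), and those of Fxyd4 and Slc26a4 held without any single array.

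**Figure D5:**
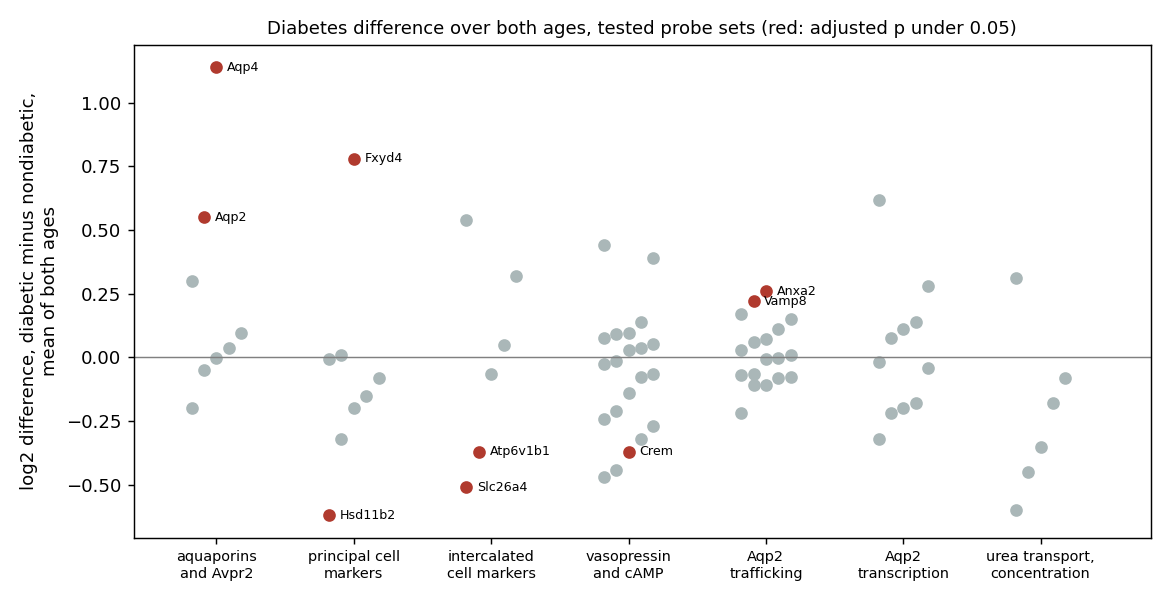
Log2 difference of diabetic minus nondiabetic rats over both ages for each tested probe set of the members and of 6 lists; red points with names passed an adjusted p of 0.05. Aqp4 (1.14), Fxyd4 (0.78) and Aqp2 (0.55) are the highest of the named points, and Hsd11b2 (-0.62) the lowest.

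The genes whose pattern over the 12 arrays was most like that of Aqp2 were found by the root mean square difference in log2 signal, after each probe set's own mean was subtracted. Against a variation of Aqp2 itself of 0.33, the smallest differences were those of Gba2, Ggta1 and Lztfl1 (0.15 each). Their diabetes differences at 10 and 20 weeks were 0.54 and 0.29, 0.54 and 0.45, and 0.58 and 0.64. For Aqp4 (own variation 0.70) they were Glrx (0.31), Stra6 (0.35) and Arrdc3 (0.37), with differences of 0.66 and 1.46, 0.80 and 1.17, and 0.68 and 1.36. These were picked for likeness among all tested probe sets and carry no test.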

How the data were processed

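Total RNA of kidney cortex was hybridised to 1-colour arrays, 1 sample per array, per the labels' protocols. The authors deposited 1 linear intensity per probe set and array, and the submitters' processing notes name GCOS; how probes were summarised is not stated there, and detection calls were not used here. With 2% trimmed from either end, every array had a mean of 500.2: the arrays had been scaled alike, which hides any change common to most transcripts. The 57 control probe sets were left out, signals under 1 (424 values) were set to 1, log2 was taken, and the dimmest 40% of probe sets were left out. Gene names came from the array annotation, updated by gene identifier through RefSeq (GRCr8): 20826 probe sets named 1 gene, 436 several and 9780 none here. Promoter sequences, their coordinates and motif shares came from the RefSeq table of the same build. A model of 4 group means was fitted to all arrays with limma 3.58.1 in R 4.3.3 (eBayes with an intensity trend, 8 residual degrees of freedom), for diabetes at each age, their interaction, age in nondiabetic rats and diabetes over both ages. The test was checked on simulated data. Precision is limited by 3 arrays per group, and since no label ties an array to a rat, p-values reflect only how these samples vary, which may be technical. Where a listed gene had several probe sets, the brightest was counted. The naming rule took all members and, of each other list, up to 4 genes of smallest p over both ages plus genes called in any comparison; exceptions are named as such. Likeness named 3 genes for each called member. The members and lists were chosen with earlier results of these data known. Alternatives were other scalings, filters, offsets, variance models, array weights, 2-group fits, a replicate block, each array left out, and 2 chosen after seeing the data. Same-numbered samples did not deviate together (correlations -0.15 to 0.15), so the numbers were not taken to pair them.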

Additional observations from a re-analysis of the deposited data

How the results depend on the processing

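No member changed sign where it was called: over both ages Aqp2 and Aqp4 were called in each of 23 settings, and the calls at a single age were lost in 16 of 24 (Aqp2, 10 weeks) and 13 of 24 (Aqp4, 20 weeks). The replicate block, for which the numbers share no stated litter or day, gave Aqp2 at 10 weeks 0.68 (adjusted p = 0.0668) and Aqp4 at 20 weeks 1.38 (adjusted p = 0.053) and moved the count of probe sets called at 10 weeks from 57 to 32. Setting array medians equal moved the median of all probe sets at 10 weeks by 0.11 and in the interaction by 0.14; the diabetes difference of Aqp7 over both ages (0.036) and the interaction of Aqp1 (0.06, 1369625_at) then changed sign, as did Aqp1 at 10 weeks with quantile normalization (-0.027), none of them called. At 10 weeks 7 were called with no intensity trend, 9 in a fit of those 2 groups, 10 without both doubted arrays (10-week diabetic replicate 1 and 20-week nondiabetic replicate 1) and 5 to 115 without single arrays (lowest without nondiabetic replicate 2; highest without nondiabetic replicate 3, with 65 higher and 50 lower, against 23 and 34 of 57). At 20 weeks it was 191, 318, 332 and 194 to 519 in the same order, against 529. Over both ages it was 502 without the trend, 494 without both doubted arrays and 524 to 825 without single arrays, against 833. The interaction gave 3 with the Gapdh ratio as a covariate and 0 to 2 without single arrays, and age in nondiabetic rats 1 with equal medians and 0 to 9 without single arrays. The cause of these changes was not tested. With no filter on dim probe sets, Aqp6, 2 probe sets of Aqp4 and 1 of Avpr2 were tested and not called (adjusted p 0.707 to 0.992).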
